A study of Drosophila melanogaster with 2 samples.

Results

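The ligand genes of the BMP and activin pathways of Drosophila melanogaster were examined for binding of Medea, and their members were all 7 genes of this family, dpp, gbb, scw, Actbeta, daw, myo and mav, out of 13945 protein-coding genes on the 6 main chromosome arms. The genes were taken as a fixed list, and peaks were collected in the span of each gene plus 5 kb on each side. Medea is encoded by Med. The chromatin came from whole embryos of both sexes, aged 0 to 24 h, of a transgenic line in which eGFP is fused to the C terminus of Med, and was precipitated with an antibody against GFP. The line is a single one, and no source used here gives the promoter that drives the fusion. Biological replicates 2 and 3, from separate biosamples, made up a single group, with no contrast between conditions, so values are described and no p-value is given. Whole embryos mix all tissues and stages of this period, so binding in few cells and weak binding in many cannot be told apart.

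Secreted ligands of this family bind pairs of type I and type II receptor kinases at the cell surface. Dpp, Gbb and Scw are BMP ligands, whose receptors phosphorylate the Smad protein Mad. Activin-beta, the product of Actbeta, and Dawdle, the product of daw, signal through the type I receptor Baboon to the Smad protein Smox, as does Myoglianin, the product of myo. The product of mav, Maverick, is the most divergent ligand. Medea is the partner Smad shared by both branches. A Medea peak near a ligand gene thus lies near the gene of a signal of the same pathway. Position alone does not show which gene a peak acts on.

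Peaks are given from 4 lists in build dm6. The authors thresholded a list by the irreproducible discovery rate, called the reproducible list here, which held 5867 peaks with signals from 164.6 to 8099 and a median of 282.0. Relaxed lists of 30000 peaks each were called on both replicates together, on replicate 2 and on replicate 3, with lowest signals of 45.0, 21.4 and 31.1. The signal of a peak was assigned by the authors, and no source used here states its scale. Ratios between the replicate lists are therefore read against the median ratio over all reproducible peaks, and not as differences in binding. A summit was counted at a promoter when it lay within 1000 bp of a transcription start site (TSS), and the read depth of the libraries is unknown.

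Reproducible peaks were found near dpp, gbb and myo and not near the other ligand genes. Reproducible summits lay in the windows of 3 of the 7 genes, dpp with 3, gbb with 2 and myo with 1, whereas 58.1% of all protein-coding genes had such a summit in a window of the same rule. At their own promoters 2 of the 7 genes, dpp and myo, had a reproducible summit, against 31.3% of all protein-coding genes. With so few genes these shares do not separate the family from the background. No reproducible summit was found in the windows of scw, daw, Actbeta and mav. The 6 summits were 2 at an own promoter, 2 at promoters of neighbouring genes, 1 in an intron of the ligand gene and 1 upstream of it. Of the 6 summits 4 lay within 1000 bp of the TSS of some protein-coding gene, while 62.3% of the whole reproducible list did.

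In the relaxed lists more of the genes had summits, mostly weak ones. Windows of 5 of the 7 genes held a summit of the list called on both replicates, 4 of replicate 2 and 6 of replicate 3, where the shares over all protein-coding genes were 85.4%, 92.0% and 82.0%. Own promoters of 5, 3 and 5 genes held such a summit, where the shares over all genes were 63.2%, 60.7% and 63.2%. The 7 windows together held 29, 21 and 37 relaxed summits. Replicate 3 thus held more summits than replicate 2 in these windows. Windows of all protein-coding genes had a median of 5 summits in the list of both, 4 in replicate 2 and 5 in replicate 3. More of those windows held any summit in replicate 2 (92.0%) than in replicate 3 (82.0%), however. The gene scw was alone in having no summit in any list.

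**Figure D1:**
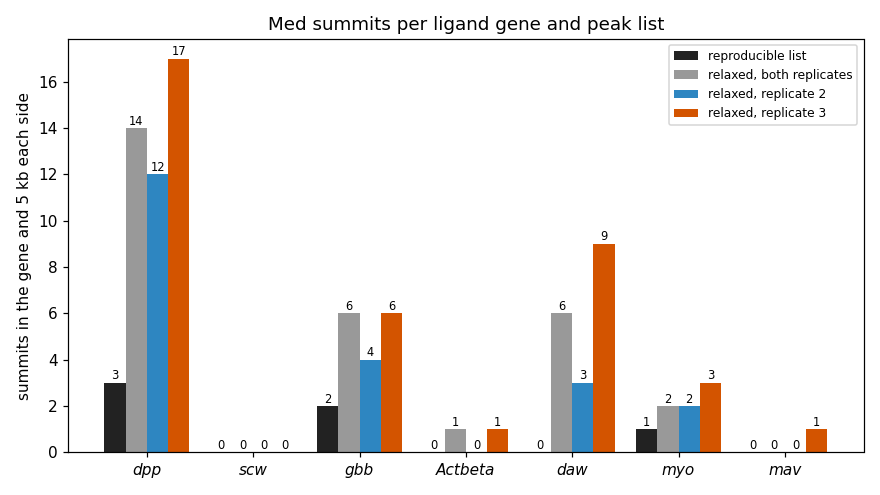
Number of Med summits in each ligand gene plus 5 kb on each side, for the reproducible list and the 3 relaxed lists (bars from 0, with the count above each). The dpp window held the most in every list, 3, 14, 12 and 17, and scw held 0 in all 4.

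The gene dpp (FBgn0000490, chr2L:2428372-2459823, plus strand) encodes the BMP morphogen that patterns the dorsal side of the embryo, the gut and the imaginal discs. It is 31452 bp long, longer than 95.5% of protein-coding genes, and has 4 annotated TSSs, each the start of 1 transcript. A long gene has more room for summits. Its window held 3 reproducible summits, and 14.3% of protein-coding genes had 3 or more in theirs. The strongest was intronic. This peak, chr2L:2433516-2433763, had its summit 5259 bp downstream of the most distal TSS, a signal of 669.7 and rank 748 of 5867.

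The intronic peak of dpp was the most evenly replicated of its 3 reproducible peaks. Its signal was 307.9 in replicate 2 (rank 763 of 30000) and 355.6 in replicate 3 (rank 802), and the summits of the replicate lists lay 2 bp and 0 bp from the reproducible summit. The log2 ratio of replicate 3 to replicate 2 was 0.21, whereas the 5553 reproducible peaks found in both relaxed lists had a median ratio of 0.33 (SD 0.75). Its difference from that median, -0.12, was well within the spread, and 40.5% of peaks had a lower ratio.

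The promoter peak of dpp ranked higher in replicate 3 than in replicate 2. It lay at chr2L:2451100-2451475, with its summit 59 bp downstream of the third TSS, in the untranslated part of the first exon that starts there. Its signal was 184.1 and its rank 5103, so it was among the weaker reproducible peaks. In replicate 3 the signal was 143.2 (rank 3744), and in replicate 2 it was 33.3 (rank 13973), close to the median of 31.95 of that list. The log2 ratio of 2.10 lay 1.78 above the median, and 95.7% of peaks had a lower ratio. The promoter signal was below the intronic signal in all 4 lists, by less in replicate 3 than in replicate 2. The reproducible list and the list of both replicates give the same signals for these peaks.

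The third reproducible peak of dpp lay upstream and leaned the other way. At chr2L:2426592-2426711 its summit was 1752 bp upstream of the most distal TSS, beyond the distance used for promoters, with a signal of 258.9 and rank 3280. Replicate 2 gave 149.5 (rank 2296) and replicate 3 gave 104.5 (rank 5858). The log2 ratio was -0.52, its difference from the median was -0.84, and 4.48% of peaks had a lower ratio. No TSS of another protein-coding gene lay within 1000 bp of it.

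**Figure D2:**
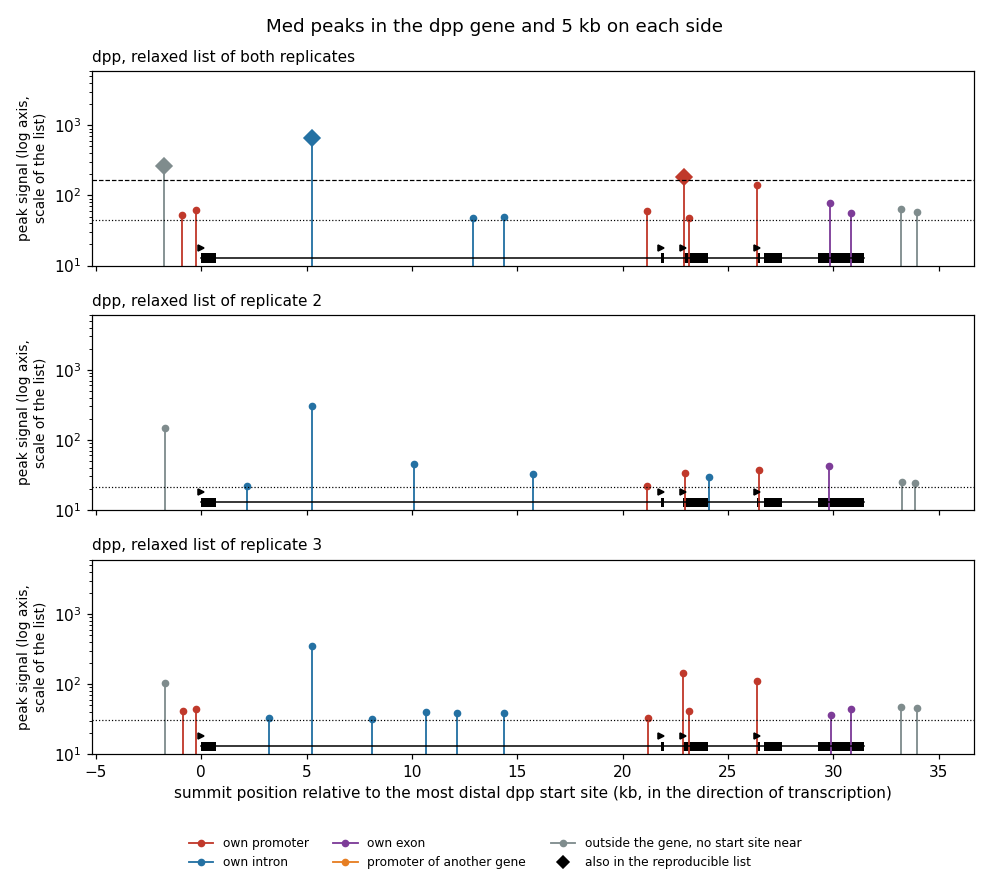
Summits in the dpp gene and 5 kb on each side, as stems of height equal to peak signal (log axis, scale of each list) against position from the most distal TSS in kb; black boxes are exons, arrowheads TSSs, diamonds peaks also in the reproducible list, the dotted line the lowest signal of the list and the dashed line, in the top panel, the lowest reproducible signal (164.6). The intronic stem is the tallest in all 3 relaxed lists (669.7, 307.9 and 355.6), and at the third TSS the signal is 33.3 in replicate 2 and 143.2 in replicate 3.

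The 4 start sites of dpp differed in signal. At the most distal TSS the strongest summit of the list called on both replicates had a signal of 62.3, 231 bp upstream, and replicate 3 gave 44.8 at the same place. Replicate 2 had no summit within 1000 bp of it. At the second TSS the values were 59.8 in the list of both, 21.9 in replicate 2 and 33.4 in replicate 3, the first from a summit 650 bp upstream. At the most proximal TSS they were 142.3, 37.3 and 110.1, with the summit of the list of both 27 bp downstream of the TSS. The third and the most proximal TSS thus held the stronger promoter summits in each relaxed list, and in the reproducible list only the third had a summit. The value at the most proximal TSS, 142.3, lay below the lowest reproducible signal of 164.6, and the value at the third, 184.1, above it.

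The relaxed summits in the dpp introns and at its promoters differed in how they were shared by the replicates. Besides the strong intronic peak, replicate 2 had 4 intronic peaks away from promoters with signals from 21.6 to 44.9 and replicate 3 had 5 with signals from 31.4 to 39.8, and none of them overlapped a peak of the other replicate. All 3 promoter peaks of replicate 2 (21.9 to 37.3) overlapped a replicate 3 peak, and 4 of the 6 of replicate 3 (33.4 to 143.2) overlapped a replicate 2 peak. The strongest promoter peaks of replicate 3, with 143.2 and 110.1, were among these 4, and so was a peak of 41.9 that overlapped the same replicate 2 peak as the first. The other shared one had 33.4, and the unshared ones had 41.0, inside lncRNA:CR44912, and 44.8. In the last exon a weak peak was shared, with 42.1 in replicate 2 and 36.2 in replicate 3, and a further one of 44.0 was found in replicate 3 only. Both weak peaks downstream of the gene were shared, with 24.6 and 24.4 in replicate 2 and 46.9 and 45.4 in replicate 3. Over the whole relaxed lists 52.7% of replicate 2 peaks and 54.4% of replicate 3 peaks overlapped a peak of the other replicate, and in the windows of the 7 genes 16 of 21 and 18 of 37 did. Shares for intronic or promoter peaks alone are not given, so the dpp contrast has no background of its own.

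The sequences under the dpp peaks show what lay at the intronic, upstream and promoter sites. They are the plus strand of the Release 6 assembly (dm6), which is the coding strand of dpp, and capitals mark matches to the motifs searched, named below. The promoter sequence is given from the start of the peak to the base before the third TSS, so no base of an annotated exon is included. It lies downstream of the most distal and the second TSS, in introns of transcripts that start there.
dpp intron peak, chr2L:2433516-2433763: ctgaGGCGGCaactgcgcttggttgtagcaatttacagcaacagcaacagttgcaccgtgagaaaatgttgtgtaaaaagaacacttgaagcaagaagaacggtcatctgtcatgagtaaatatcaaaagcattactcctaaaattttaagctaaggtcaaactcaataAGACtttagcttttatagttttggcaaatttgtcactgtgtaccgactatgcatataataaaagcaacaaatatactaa
dpp upstream peak, chr2L:2426592-2426711: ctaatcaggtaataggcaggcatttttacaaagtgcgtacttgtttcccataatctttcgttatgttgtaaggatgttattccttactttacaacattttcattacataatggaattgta
dpp promoter peak, chr2L:2451100-2451228: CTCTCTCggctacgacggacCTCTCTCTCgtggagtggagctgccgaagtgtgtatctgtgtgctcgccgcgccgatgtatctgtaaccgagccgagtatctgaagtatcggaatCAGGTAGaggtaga
In the intron peak of 248 bp the capitals are a GC-rich Mad site at positions 5 to 10 and a Smad box at positions 170 to 173, which starts 54 bp after the summit. The upstream peak of 120 bp has no match, and 31.7% of its bases are G or C. In the promoter sequence they are overlapping matches to the GAGAG motif at its first bases and at positions 21 to 29, and 1 Zelda motif at positions 116 to 122.

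The motifs were searched on both strands. They were the Smad box GTCT, which Medea and Mad can bind, the GC-rich Mad sites GGCGNC and GACGNC, the Brk sites GGCGCC and GGCGCT, the Zelda motif CAGGTAG, the GAGAG motif of the GAGA factor, the Dref motif TATCGATA, the M1BP motif GGTCACAC, and the silencer element by which Mad, Medea and Schnurri repress genes, in which a GC-rich site is followed at a fixed spacing by a Smad box. The forms overlap, since every GGCGCC is also a match to GGCGNC, and GACGCC matches both GC-rich forms. None of the 6 windows of 50 bases on each side of the reproducible summits of the ligand genes held a Smad box, against 32.0% of all 5867 such windows. A GC-rich site was in 1 of the 6, at myo, where it matched both forms, against 9.65% of all windows for the first form and 6.41% for the second. In windows of 300 bp 4 of the 6 held a Smad box, against 70.2% of all, 3 held the first GC-rich form against 28.9%, and 3 the second against 21.2%. No window of either length held a Brk site, the M1BP motif or the silencer element, which were in 6.48% and 10.5%, 5.68% and 0.307% of all windows of 300 bp. The GAGAG motif was in 0 of the 6 shorter windows, against 11.3% of all. In windows of 300 bp it was in 1 of the 6, at Pym, against 34.8%. A match is a description of letters, and its absence says only that these letters are not in the window.

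The strongest peak near any ligand gene lay beside gbb, at the promoters of its neighbours. The gene gbb (FBgn0024234, chr2R:23851562-23853247, plus strand) encodes the BMP ligand Glass bottom boat, known for the retrograde signal from muscle to motor neuron. It is 1686 bp long with 1 TSS. A peak at chr2R:23850207-23850586 had a signal of 3308 and rank 21 of 5867, so 0.341% of reproducible peaks were stronger. Its summit lay 98 bp from the TSS of eIF6, the gene of a translation initiation factor, and 674 bp from the nearest TSS of ytr. It was inside ytr and asRNA:CR45928, and 1163 bp upstream of the TSS of gbb. Replicate 2 gave 1544 (rank 24) and replicate 3 gave 1773 (rank 19), a log2 ratio that differed from the median by -0.13. Both replicates thus held it near the top of their lists, and its distance to gbb was just beyond the 1000 bp used for promoters.

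The promoter of gbb itself had weak summits. The list of both replicates had a summit 98 bp downstream of its TSS with a signal of 69.1, 180 bp from another TSS of ytr. In replicate 3 the signal was 49.1 at 123 bp, and replicate 2 held no summit within 1000 bp of this TSS. A further replicate 3 summit, with 32.9, lay 541 bp upstream of it and 52 bp from a TSS of ytr. On the downstream side of gbb a reproducible peak at chr2R:23856771-23857146, with a signal of 222.8, lay 23 bp from the TSS of Pym, inside the span of bgcn. It had 70.1 in replicate 2 and 152.3 in replicate 3, a log2 ratio 0.79 above the median. The list of both replicates also had weaker summits, with 91.9 near eIF6 and 47.1 near Pym. A peak 2827 bp upstream of gbb, with 97.6 in that list, was shared by the replicates (36.65 and 59.3). No reproducible summit lay inside gbb.

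No peak of any list lay in the window of scw (FBgn0005590, chr2L:19699379-19700968, minus strand), the gene of the BMP ligand Screw, which acts with Dpp in the early embryo. All 4 lists were empty there, which held for 4.52% of protein-coding genes. The gene is 1590 bp long with 1 TSS and lies within the spans of Lar and CG46244. The nearest summit of the reproducible list was 57751 bp from the gene and had a signal of 1182. In the list of both replicates the nearest was at 34973 bp (signal 130.9), in replicate 2 at 11272 bp (29.0) and in replicate 3 at 35025 bp (87.7). A list that ends at 30000 peaks does not show that Medea was absent.

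The activin ligand gene daw (FBgn0031461, chr2L:2805261-2812376, plus strand) had only relaxed peaks. It is 7116 bp long with 2 TSSs, and its window held 6 summits in the list of both replicates, 3 in replicate 2 and 9 in replicate 3. The strongest of the list of both, with 99.5, lay 37 bp downstream of the second TSS and had 38.2 in replicate 2 and 59.2 in replicate 3. At the first TSS the list of both gave 73.0 at 236 bp upstream, and replicate 3 gave 61.4, while replicate 2 had no summit within 1000 bp. All 3 peaks of replicate 2 overlapped a replicate 3 peak, and 4 of the 9 of replicate 3 overlapped a replicate 2 peak. Among these a peak, with 46.4, lay 405 bp from the TSS of Syt1 and overlapped a replicate 2 peak whose summit was just outside the window. The peak at the second TSS was shared too. A further shared peak lay 2697 bp upstream of the first TSS (92.8 in the list of both, 33.5 and 52.2 in the replicates). The last was in a coding exon (70.5, 37.7 and 32.7). A weak summit of the list of both replicates downstream of daw, with 46.2, lay inside CG2964. The values of the list of both replicates at daw were all below the lowest reproducible signal, and the nearest reproducible summit was 18003 bp away.

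Both other chromosome 4 ligand genes without a reproducible peak had hardly any relaxed ones. The gene Actbeta (FBgn0024913, chr4:1077331-1084796, minus strand), whose ligand is made largely by neurons, had a summit of 45.0 in the list of both replicates, at the lower end of that list, in an intron 681 bp downstream of its TSS. Replicate 3 had a summit of 54.5 in a coding exon 1914 bp downstream of the TSS, and replicate 2 had none. The 2 summits lay at different places, so no site was found in more than 1 list. The gene mav (FBgn0039914, chr4:623219-626031, minus strand) had a single summit, in replicate 3, with a signal of 54.1 at 194 bp upstream of its TSS. The nearest reproducible summits were 28554 bp from Actbeta (signal 987.9) and 34102 bp from mav (417.6).

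The third ligand gene of chromosome 4, myo (FBgn0026199, chr4:690686-696055, minus strand), which encodes an activin-like ligand of muscle and glia, had a reproducible promoter peak. It lay at chr4:696819-696972 with its summit 847 bp upstream of the TSS of myo and 787 bp from the TSS of ey, the Pax6 gene of eye development, between the divergent genes. Its signal was 377.6 and its rank 1936 of 5867, with 170.3 in replicate 2 (rank 1937) and 215.9 in replicate 3 (rank 1969). The log2 ratio of 0.34 was within 0.02 of the median, so of the 6 peaks it was the closest to the general ratio of the replicates. It cannot be assigned to myo or ey by position.
myo promoter peak, chr4:696819-696972: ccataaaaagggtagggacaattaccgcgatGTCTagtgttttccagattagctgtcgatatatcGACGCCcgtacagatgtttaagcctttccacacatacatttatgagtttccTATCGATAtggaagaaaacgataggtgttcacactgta
The sequence is the plus strand of dm6, which is the template strand of myo, and it is shown because this was the most evenly replicated promoter peak of the family. The capitals are a Smad box at positions 32 to 35, the GC-rich site GACGCC at 66 to 71, which starts 18 bp before the summit, and the Dref motif at 117 to 124. Closer to ey, 7 bp from its TSS and 1641 bp upstream of that of myo, a further peak of the list of both replicates had a signal of 147.4, below the lowest reproducible signal. It had 64.1 in replicate 2 and 74.4 in replicate 3. At the TSS of myo itself, 55 bp downstream of it, there was a summit in replicate 3 only, with 59.7.

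**Figure D3:**
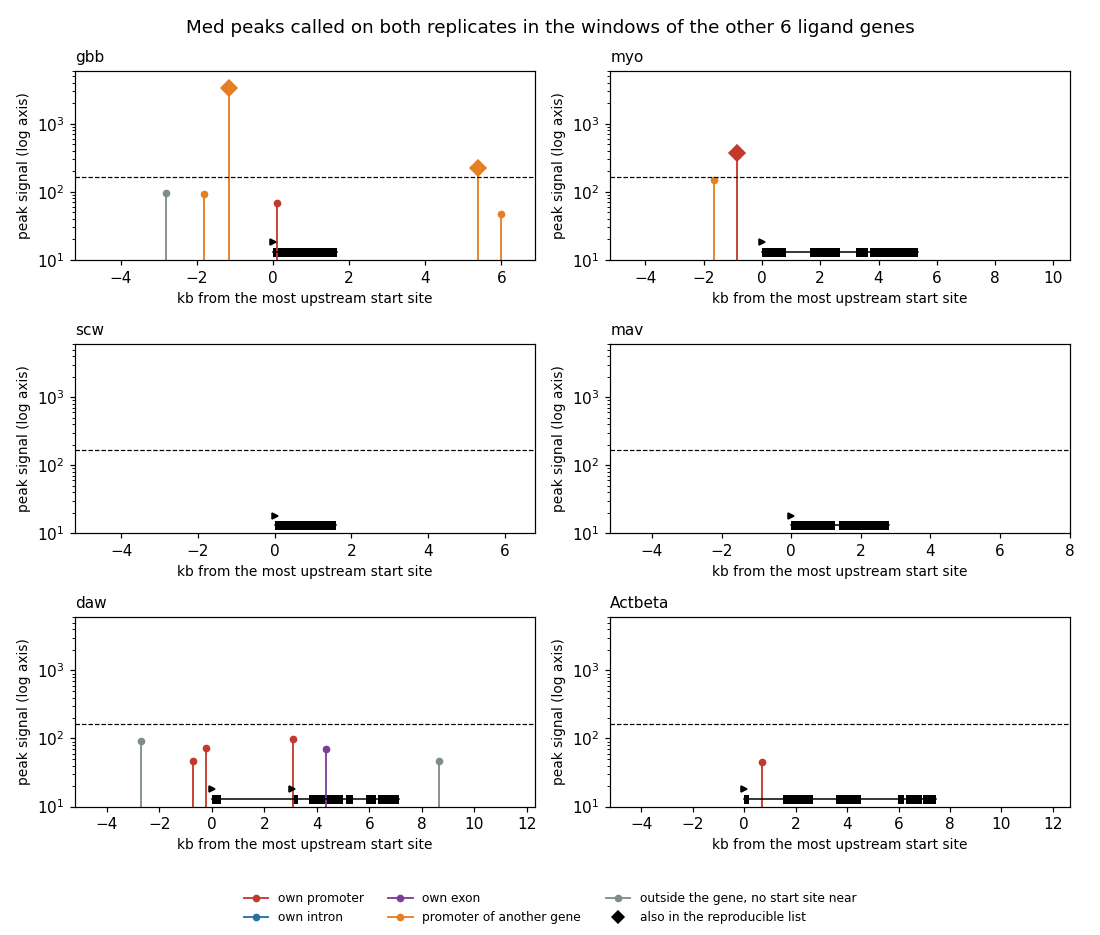
Summits of the relaxed list of both replicates in the windows of the other 6 ligand genes, as stems of height equal to peak signal (log axis) against position from the most upstream TSS in kb in the direction of transcription; black boxes are exons, diamonds mark peaks that are also in the reproducible list, and the dashed line is the lowest reproducible signal (164.6). The gbb window has a peak of 3308 at the promoters of its neighbours, myo a peak of 377.6, and scw and mav have none in this list.

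Chromosome 4, which carries 3 of the 7 ligand genes, had few reproducible peaks as a whole. It held 19 reproducible summits. Of its 80 protein-coding genes 14 (17.5%) had a reproducible summit at an own promoter and 24 (30.0%) in the window, both lower than the shares of 31.3% and 58.1% over all arms. The part of this in the counts of Actbeta, myo and mav was not tested.

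Replicate agreement differed among the 6 reproducible peaks of the family. All 6 overlapped a relaxed peak of both replicates, as did 94.6% of the reproducible list, and in all 6 the replicate summits were within 52 bp of the reproducible one. The peak at eIF6 and ytr, the intronic peak of dpp and the peak of myo had log2 ratios that differed from the median by -0.13, -0.12 and 0.02. The peak at Pym and the promoter peak of dpp leaned to replicate 3, and the upstream peak of dpp leaned to replicate 2. The peaks with even ratios were also those with the highest signals. Of the 6 peaks 3 were narrower than the width of 376 bp that 44.4% of reproducible peaks had, namely the upstream peak of dpp at 120 bp, the peak of myo at 154 bp and the intronic peak of dpp at 248 bp. In replicate 2 these 3 were 115 bp, 117 bp and 223 bp wide, and in replicate 3 they were 370 bp, 370 bp and 203 bp.

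**Figure D4:**
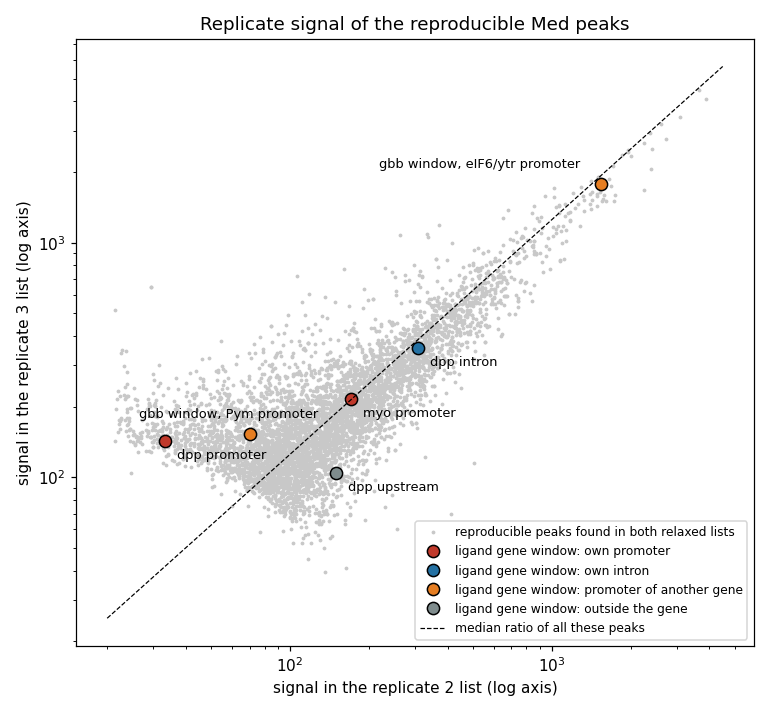
Signal in replicate 3 against signal in replicate 2 (both log axes) for the 5553 reproducible peaks found in both relaxed lists (grey), with the 6 peaks of the ligand gene windows coloured by position and the median ratio as a dashed line. The dpp promoter (33.3 and 143.2) and the peak at Pym (70.1 and 152.3) lie above the line, the dpp upstream peak (149.5 and 104.5) below it, and the other 3 close to it.

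Peaks at the edges of the windows show what the 5 kb limit took in. At gbb the reproducible peak at Pym, 3712 bp from the gene, was inside, and a peak of 951.8 at chr2R:23858630-23858935, 5527 bp from the gene, was just outside. At dpp the upstream peak, 1752 bp from the gene, was inside, and a peak of 170.0 at 7719 bp was outside. At daw a replicate 3 peak at 4877 bp (46.4) was inside and a replicate 2 peak at 5025 bp (50.9) was outside. The lowest reproducible signal of 164.6 separated 184.1 at the third TSS of dpp from 147.4 at ey and 142.3 at its most proximal TSS.

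Reproducible promoter summits were also counted for other genes of the pathway, beside the 2 of 7 ligand genes and the 31.3% of all protein-coding genes. Among the receptor genes 4 of 5 did, led by wit (300.2), which encodes a type II receptor, and babo (267.5), the activin type I receptor gene, whose summit 3 other genes shared. Among the Smad genes 3 of 4 did, led by Mad (938.8, with 423.1 and 520.9 in the replicates) and by Med itself (292.2), the tagged gene, whose peak was shared with CycG and overlapped no relaxed peak of replicate 2. Of 13 genes for ligand-binding and ligand-processing proteins 7 did, led by Fur1, the gene of a proprotein convertase (1814, shared with Vps33B), and nord (583.1). Of the 14 promoter peaks in these lists 7 were shared with another gene. These lists were made with results of these data known, and the differences between them were not tested.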

How the data were processed

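Embryonic chromatin of a Med-eGFP line was precipitated with an antibody against GFP, sheared to 200 to 800 bp, per the labels, and sequenced in 2 biological replicates. The authors deposited, per the manifests, relaxed peak lists for each replicate and for both together, and a list thresholded by the irreproducible discovery rate. The deposited signal of each peak was computed by the authors on a scale that no source used here states. The manifests name 1 control file for both replicates. No source used here gives the aligner, peak caller, versions or read totals. The dm3 lists were not used.

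Genes and TSSs came from Ensembl release 115 (BDGP6.54) and sequence from the RefSeq copy of Release 6, both on dm6 coordinates, counted from 1. Summits were assigned first to an own promoter (1000 bp), then to a promoter of another protein-coding gene, an exon, an intron, or none of these. Replicate signal at a reproducible peak is that of the strongest overlapping relaxed peak. Counting was tested on simulated data. The members, the gene lists and motifs were chosen with earlier results of these data known. All 7 members are named, as are neighbours with a TSS near a summit or a span that holds it, and in each pathway list the 2 genes with the strongest promoter peak. The planned comparison of the ligand proteins was not made. Likeness to other genes was not computed, since 2 replicates of 1 group give no pattern. Other promoter distances, flanks and overlap rules, the stronger part of the list and single replicates were tried as alternatives. Python 3.11.15, numpy 2.4.6, pandas 2.3.3 and matplotlib 3.10.9 were used.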

Additional observations from a re-analysis of the deposited data

How the results depend on the processing

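No paired analysis was possible because there was 1 group. The count of ligand genes with an own promoter summit (2) fell to 1 in the stronger 2933 peaks of the reproducible list, where dpp was lost, and to 1 at 500 bp, where myo was lost. It was 3, with gbb, at 2000 bp, through the peak at the promoters of eIF6 and ytr. Counting any overlap of the peak interval in place of the summit also gave 3. Among as many of the strongest peaks of a single replicate as the reproducible list holds, it was 1 with replicate 2, where dpp was lost, and 2 with replicate 3. The number of genes with a summit in the window (3) was 1 with no flank, and 3 with either replicate alone. The number of summits (6) was 3 in the stronger list, 3 with flanks of 1 kb, 2 with no flank, and 5 to 7 with either replicate alone. The signal of the dpp intron peak was 307.9 to 355.6 in the replicate lists, that of the dpp promoter peak 33.3 to 143.2 and that of the myo peak 170.3 to 215.9, each on the scale of its list. The cause of these changes was not tested, apart from the narrower windows and shorter lists themselves. Read totals were not used, so the depth behind the weak peaks is unknown.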

Other observations

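The Dref motif TATCGATA was in 3 of the 6 windows of 300 bp at the reproducible summits, those of myo, of eIF6 and ytr, and of Pym, against 6.89% of all windows. This count was picked out after its values were seen. The 3 windows with it were those at or between TSSs of neighbouring genes, and none of the 3 dpp windows had it. The Zelda motif was in 1 of the 6 windows, at the dpp promoter, against 1.48% of all windows.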
